A study of Mus musculus with 4 samples.

Results

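Osteoclasts form from macrophage precursors only when a set of transcription factors that hold the precursors back gives way. Here 8 genes given as such factors, called brake genes below, were examined in BMMs (bone marrow derived macrophages) exposed to RANKL. Whether each of them acts as a brake in these cells was not tested. The 8 genes were given by name, Irf8, Bcl6, Id1, Id2, Id3, Zbtb7a, Eomes and Rbpj, and all 8 were found by gene name among the 34745 mouse genes of the count table. The BMMs came from wild-type, 8-week-old male C57BL/6 mice. After 12 h in medium that lacked FBS, all cells received RANKL (100 ng/mL) for 24 h, either with dimethyl itaconate (DI), a membrane-permeable itaconate ester, in 2 libraries (RANKL+DI), or with the solvent DMSO in 2 libraries (RANKL+DMSO). The dose of DI is 20 mM in the sample labels but 20 μM in the methods, so it is uncertain. Nothing in the labels says that the libraries of a group came from separate mice, so p-values measure the spread between libraries, which may be technical.

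RANKL, the cytokine that starts osteoclast formation, induces the transcription factors c-Fos and NFATc1, and NFATc1 then drives the osteoclast genes. It also induces Blimp1, encoded by Prdm1, a repressor that silences brake genes such as Irf8 and Bcl6, and so releases NFATc1. The brakes work in different ways: IRF8 binds and restrains NFATc1, BCL6 is a zinc finger repressor that sits on osteoclast genes, the ID proteins are helix-loop-helix proteins without a DNA-binding region that tie up their partners, and RBP-J is the DNA-binding protein of the Notch pathway. All 4 libraries received RANKL, so the loss of a brake under RANKL could not be measured here, and the comparison asks only whether the brakes stood higher with DI than with DMSO.

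The libraries held between 16085692 and 19403480 counts. Levels are given as CPM, counts relative to the TMM-scaled library total, and 3 counts, taken as the floor of detection, corresponded to 0.160 to 0.180 CPM. Of 12590 tested genes, 899 rose and 969 fell with DI when edgeR was run with a threshold of 0.05 on the adjusted p, a split that became 548 and 1932 when the libraries were scaled by their size only, which moved the median log2 fold change of all genes from 0.00 to -0.10. The macrophage markers Adgre1, Csf1r, Cd68, Itgam, Fcgr1, Mertk, Lyz2 and Cd14 were detected in all libraries. Their summed level lay between 22261 and 23125 CPM with DMSO and between 28443 and 29258 CPM with DI. Of these 8 markers, 5 rose, among them Itgam by 0.57 and Lyz2 by 0.37 on the log2 scale, Fcgr1 and Cd14 fell, and Csf1r did not pass the test. The markers of other cells were low beside this sum. In each library the T and NK cell markers summed to at most 0.699 CPM, the B cell markers to at most 0.600 CPM and the dendritic cell markers to at most 0.966 CPM. Neutrophil markers summed to between 7.73 and 9.79 CPM. Stromal and endothelial markers summed to 48.5 and 50.3 CPM with DI and to 60.7 and 65.6 CPM with DMSO. Of these Kdr, an endothelial receptor gene, fell from 17.3 and 16.9 CPM to 9.26 and 8.80 CPM (adjusted p = 0.00404 by edgeR). The other 4 tested genes of this list did not pass, among them endothelial Cdh5 (log2 fold change 0.09 ± 0.38, SE). Pecam1, also endothelial, had at most 5 counts in a library and was not tested. The fall of Kdr was thus not seen in the other endothelial markers, which were low. The part of these shifts in the results below was not tested, and in these bulk libraries fewer cells of a type and less RNA per cell cannot be told apart.

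With DI, 2 of the 8 brake genes rose and none fell. Irf8 and Id2 each stood about 1.36-fold above DMSO at an adjusted p under 0.05, while Bcl6, Id1, Id3, Zbtb7a and Rbpj did not pass and Eomes was not detected. Of the 7 genes with enough counts to be tested, 28.6% were called, where 14.8% of all tested genes were called in either direction, 7.14% as higher and 7.70% as lower with DI. The 2 groups of libraries did not overlap for 5 of the 7 genes, or 71.4%, against 58.6% of all tested genes. The median log2 fold change of the 7 genes was 0.18, and 6 of the 7 values were above 0, where 50.2% of all tested genes were. The middle of the distribution of all genes, from its lower to its upper quartile, ran from -0.17 to 0.16.

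**Figure D1:**
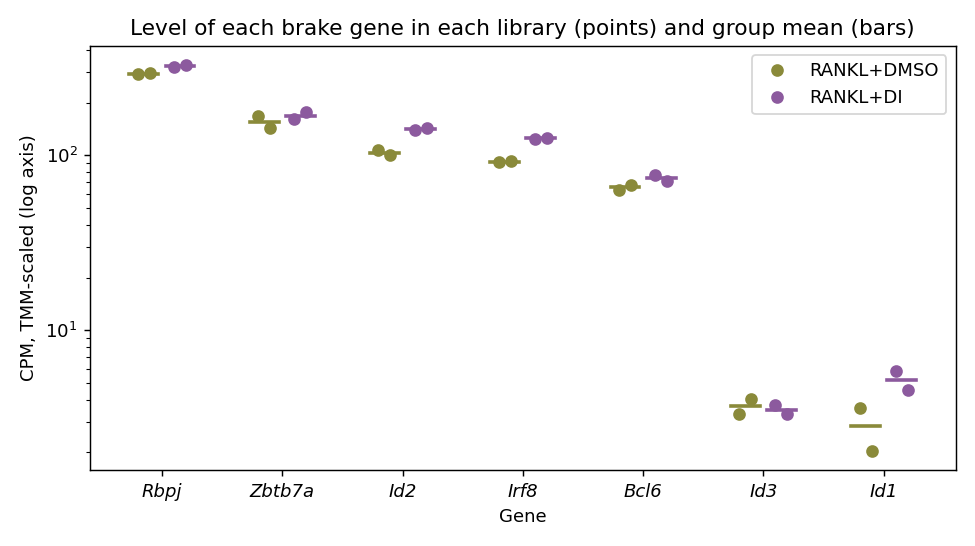
CPM of the 7 detected brake genes (log axis) in the RANKL+DMSO and RANKL+DI libraries, with each library as a point and each group mean as a bar. The DI points of Irf8 (124 and 126 CPM) and Id2 (139 and 144 CPM) lie above their DMSO points, while those of Id3 and Zbtb7a overlap.

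Levels can be compared between genes only per length, for which the deposited FPKM values were used. The gene lengths that these values imply differ from those of GENCODE M21 for several brake genes. For Id1 and Id3 the implied length exceeds the span of the gene, and for Zbtb7a, Rbpj, Irf8 and Bcl6 the exon bases. For Id2 it is shorter than the exon bases, which raises its FPKM, so the order that follows is approximate. On the FPKM scale Id2 was the most abundant brake in BMMs, at 87.5 and 81.7 FPKM with DMSO and 105 and 109 FPKM with DI. Zbtb7a followed, at 19.7 and 16.8 FPKM with DMSO and 17.5 and 19.2 FPKM with DI. Rbpj lay next, at 14.6 and 14.9 FPKM with DMSO and 14.9 and 15.4 FPKM with DI. Irf8 came below Rbpj in both groups, at 10.9 and 11.0 FPKM with DMSO and 13.8 and 14.0 FPKM with DI, and Bcl6 below Irf8, at 8.79 and 9.43 FPKM with DMSO and 9.99 and 9.18 FPKM with DI. Neighbouring genes in this order did not overlap within a group, but the place of Rbpj below Zbtb7a is uncertain. The implied length of Rbpj exceeds its 12750 exon bases, and a near-identical pseudogene may have taken some of its reads. At the low end, Id1 (1.78 and 1.01 FPKM) and Id3 (1.5 and 1.82 FPKM) overlapped with DMSO, whereas with DI Id1 (2.70 and 2.09 FPKM) stood above Id3 (1.56 and 1.39 FPKM). Eomes was listed at 0 in every library.

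Irf8 (ENSMUSG00000041515) encodes interferon regulatory factor 8, a factor that macrophages and dendritic cells need for their development. The gene is protein-coding and lies on chromosome 8 from 120736358 to 120756694 on the plus strand of GRCm38. Its counts were 2135 and 2359 in the DI libraries and 1703 and 1537 in the DMSO libraries, or 124 and 126 CPM against 91.4 and 92.3 CPM. Both DI libraries were above both DMSO libraries, and libraries of the same group were close together. The mean rose from 91.9 ± 0.603 to 125 ± 1.01 CPM (SD, n = 2 each), which is a log2 fold change of 0.45 ± 0.05 (SE, adjusted p = 0.00301 by edgeR). The 95% interval of the fold change ran from 1.26 to 1.47. Of all tested genes, 7.18% had a larger log2 fold change. The rise was kept under all 13 alternative settings, from a log2 fold change of 0.32 to one of 0.46, and it was 0.34 when scaled by library size only.

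Bcl6 (ENSMUSG00000022508), the repressor that also governs germinal centre B cells, is a protein-coding gene on chromosome 16 from 23965052 to 23988852 on the minus strand. It stood at 77.4 and 70.8 CPM with DI and at 63.3 and 67.9 CPM with DMSO. The groups did not overlap, but the gap between the closest libraries was smaller than the gap within each group. The log2 fold change was 0.18 ± 0.07 (SE) and did not pass the test (adjusted p = 0.168 by edgeR), with a 95% interval of the fold change from 0.999 to 1.28. When scaled by library size only it was 0.07. A change of Bcl6 beyond 1.28-fold lay outside this interval, while no change lay at its edge.

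The sequences just before the starts of Irf8 and Bcl6 are shown because both hold the letters TTCNNNGAA, the core of the gamma-activated sequence (GAS) to which STAT proteins bind and which resembles the element that BCL6 itself recognises. RefSeq promoter windows on GRCm38.p6 were matched by symbol for 7 of the 8 genes, Id1 being the exception, and gave 10 windows, the pair of Rbpj overlapping each other. The 250 bases before each start were searched on both strands. The letters TTCNNNGAA were in 7.02% of all 32851 windows. Among the brake genes they occurred 2 times in the first window of Irf8, 1 time in the outer window of Bcl6 and 3 times in its inner window, which lies inside the gene, and in no window of Id2, Id3, Zbtb7a, Rbpj or Eomes. The matches of Irf8 began 171 and 153 bases before the start. The second window of Irf8 and the windows of Id3, Zbtb7a and Rbpj also lay inside their genes, and that of Id2 held exon bases of Id2. The windows are printed 5′ to 3′ on the strand of the gene, with the matches in capitals. They lie at chr8:120736108-120736357 (plus strand), chr16:23988853-23989102 (minus strand) and chr16:23981284-23981533 (minus strand).
Irf8, first window: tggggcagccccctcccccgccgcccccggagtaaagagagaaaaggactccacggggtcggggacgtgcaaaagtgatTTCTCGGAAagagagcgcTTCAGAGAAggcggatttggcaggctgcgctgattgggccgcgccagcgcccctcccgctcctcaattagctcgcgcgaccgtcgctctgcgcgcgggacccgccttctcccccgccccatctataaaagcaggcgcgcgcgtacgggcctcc
Bcl6, outer window: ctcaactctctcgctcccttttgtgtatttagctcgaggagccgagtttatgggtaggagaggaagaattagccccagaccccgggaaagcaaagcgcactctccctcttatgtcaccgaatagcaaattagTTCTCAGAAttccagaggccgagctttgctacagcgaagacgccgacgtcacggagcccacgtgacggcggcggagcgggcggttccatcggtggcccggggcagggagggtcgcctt
Bcl6, inner window: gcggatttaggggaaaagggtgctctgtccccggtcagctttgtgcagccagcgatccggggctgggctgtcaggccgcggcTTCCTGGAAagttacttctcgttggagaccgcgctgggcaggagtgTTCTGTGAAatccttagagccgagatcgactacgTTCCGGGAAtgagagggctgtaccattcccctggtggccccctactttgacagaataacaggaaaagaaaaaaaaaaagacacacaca

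Other letters searched in the same windows were sparse. The core of the interferon-stimulated response element, GAAA and GAAA with NN between them, was in 2.98% of all windows and, among the brake genes, in that of Eomes only. TGACNNNGC, the core of the antioxidant response element, was in 10.2% of all windows and in the second window of Irf8. TGGGAA, the core to which RBP-J binds, was in 21.6% of all windows, in both windows of Rbpj and in the second window of Irf8. The windows of Rbpj share a site in their overlap, which is therefore counted in each. The E-box CANNTG, which the partners of the ID proteins bind, was in 66.2% of all windows and in 1 window each of Id2, Rbpj, Irf8 and Bcl6. TGANTCA for AP-1 (6.75% of all windows) and GGGNNTTCC for NF-kB (4.98%) were in none of the 10. These matches describe letters, not binding.

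The ID genes encode small dominant-negative partners of E proteins, and in the osteoclast lineage of MITF. Id2 (ENSMUSG00000020644), on chromosome 12 from 25093801 to 25096092 on the minus strand, was the member with the clearest signal among them. Its counts were 2379 and 2692 in the DI libraries and 1997 and 1669 in the DMSO libraries, or 139 and 144 CPM against 107 and 100 CPM. Every DI library was above every DMSO library. The mean rose from 104 ± 4.95 to 141 ± 3.51 CPM (SD, n = 2 each), which is a log2 fold change of 0.44 ± 0.05 (SE, adjusted p = 0.00491 by edgeR). The 95% interval of the fold change was 1.24 to 1.49. It was above DMSO and past the threshold under all 13 alternatives, from 0.34 to 0.49, and stood at 0.34 when scaled by library size only.

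Id1 (ENSMUSG00000042745), on chromosome 2 from 152736251 to 152737410 on the plus strand, had the largest fitted change of the brake genes but on few counts. Only 101 and 85 counts were seen with DI and 67 and 34 with DMSO, or 5.88 and 4.53 CPM against 3.60 and 2.04 CPM. The groups did not overlap, yet the DMSO libraries differed from each other by more than the nearest DI and DMSO libraries did. The log2 fold change was 0.87 ± 0.29 (SE) and did not pass (adjusted p = 0.110 by edgeR). The 95% interval of the fold change ran from 1.11 to 3.01, but unlike this p-value it is not adjusted for the number of genes. The log2 fold change was 1.34 without DMSO replicate 1 and 0.53 without DMSO replicate 2. Without the filter on low counts Id1 did pass, at the same log2 fold change of 0.87 (adjusted p = 0.0411 by edgeR).

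Id3 (ENSMUSG00000007872), on chromosome 4 from 136143497 to 136145755 on the plus strand, had similar counts in the 4 libraries, 64 and 62 with DI and 62 and 67 with DMSO. At 3.73 and 3.31 CPM against 3.33 and 4.02 CPM the groups overlapped. Its log2 fold change was -0.06 ± 0.20 (SE, adjusted p = 0.875 by edgeR), and the interval of the fold change ran from 0.687 to 1.34, so that smaller changes were not detectable at this depth. The ID genes thus differed in their values, with Id1 and Id2 above 0 and Id3 near 0, but the differences between them were not tested.

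Zbtb7a (ENSMUSG00000035011) encodes LRF, a BTB zinc finger repressor related to BCL6, and lies on chromosome 10 from 81135220 to 81152995 on the plus strand. Its levels overlapped, at 161 and 176 CPM with DI and 168 and 143 CPM with DMSO. The log2 fold change was 0.11 ± 0.09 (SE, adjusted p = 0.443 by edgeR), and the interval of the fold change ran from 0.933 to 1.25. With 1 library left out it ranged from 0.00 (without DMSO replicate 2) to 0.24 (without DMSO replicate 1).

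Rbpj (ENSMUSG00000039191), on chromosome 5 from 53466152 to 53657362 on the plus strand, had the most counts of the brake genes, 5455 and 6136 with DI and 5400 and 4924 with DMSO. The levels were 318 and 327 CPM with DI and 290 and 296 CPM with DMSO, without overlap. The log2 fold change of 0.14 ± 0.04 (SE) did not pass (adjusted p = 0.0654 by edgeR). The interval of the fold change, which is not adjusted for the number of genes, was narrow, from 1.03 to 1.18. The log2 fold change was 0.04 when scaled by library size only. A processed pseudogene, named Rbpsuh-rs3 in the count table, matches 26.3% of the Rbpj transcript at 99.7% identity and was credited with 80.2 CPM in each DI library and 73.4 and 78.2 CPM with DMSO, so reads may have been divided between them and the level of Rbpj is uncertain. This pseudogene was looked up after the counts had been seen.

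Eomes (ENSMUSG00000032446), a T-box factor best known from cytotoxic T cells and NK cells, lies on chromosome 9 from 118478212 to 118486132 on the plus strand and had 0 counts in all 4 libraries. A count of 0 allows a level of up to 0.160 to 0.180 CPM per library, so any effect of DI on Eomes was not detectable at this depth. The related gene Tbx21 also had 0 counts in every library, and no gene of the T-box family list had more than 5 counts in a library. Of the 9 T and NK cell markers, 7 had 0 counts in all libraries, including Cd3e, Cd3g and Cd8a. The floors cover counting error only, while the intervals of the fold changes come from the edgeR fit and include the spread between libraries.

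**Figure D2:**
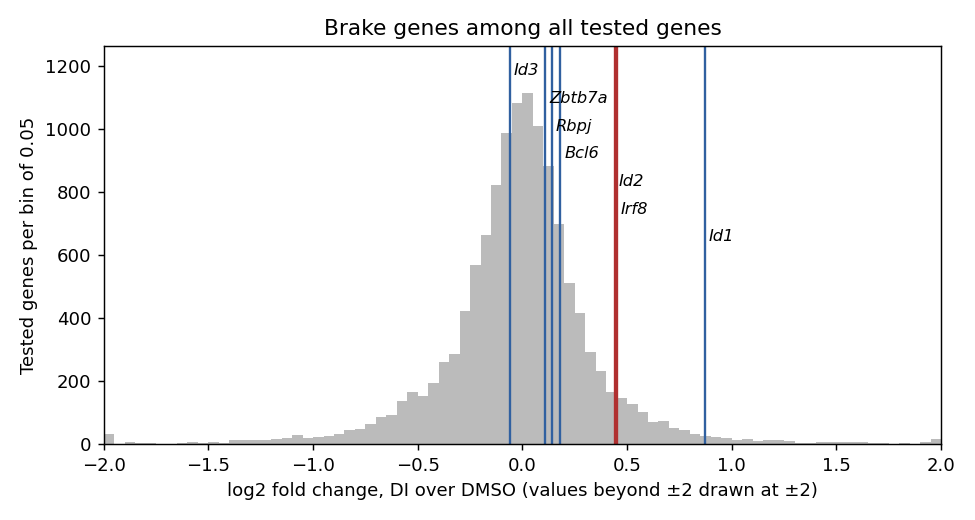
Histogram of the log2 fold change (DI over DMSO) of the 12590 tested genes in bins of 0.05, values beyond -2 and 2 drawn at the ends, with the brake genes as vertical lines, red at an adjusted p under 0.05 and blue otherwise. Irf8 (0.45) and Id2 (0.44) lie in the right flank and Id1 (0.87) further out, while Id3, Zbtb7a, Rbpj and Bcl6 lie within the bulk of all genes.

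**Figure D3:**
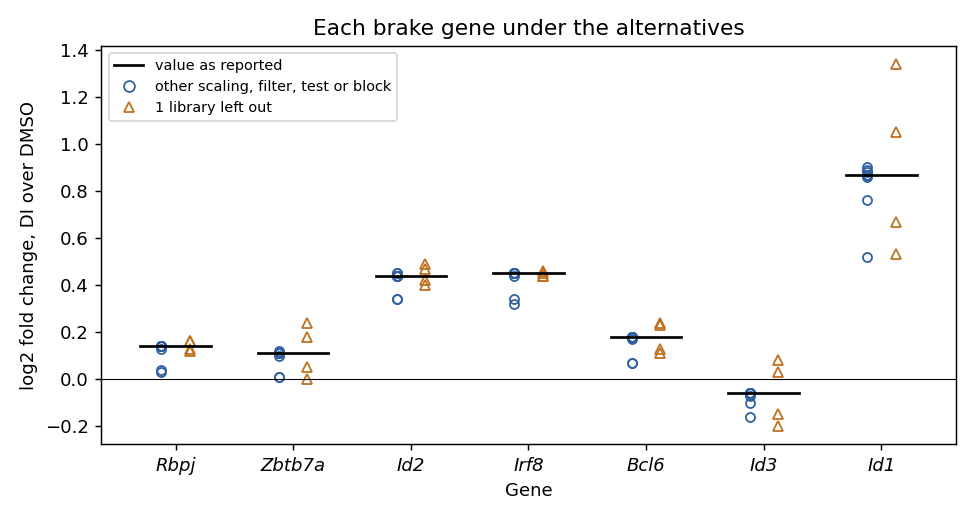
Log2 fold change of each brake gene (DI over DMSO) as reported (black line), under another scaling, filter, test or block (circles) and with 1 library left out (triangles). Irf8 and Id2 stay between 0.32 and 0.49, Id1 spreads from 0.52 to 1.34, and Id3 lies on both sides of 0.

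Most other genes listed as brakes on osteoclast formation did not pass the test. Of 8 further brakes, 7 were tested, 2 rose, 0 fell and 5 did not pass, with a median log2 fold change of 0.01. Klf2, a Krüppel-like factor of quiescent monocytes, rose from 9.13 CPM in each DMSO library to 13.1 and 13.5 CPM, a log2 fold change of 0.54 ± 0.11 (SE, adjusted p = 0.0236 by edgeR). Foxo3, a forkhead factor of the stress response, had a log2 fold change of 0.30 ± 0.07 (SE, adjusted p = 0.0349 by edgeR). The call of Klf2 was lost with any library left out (adjusted p from 0.0519 to 0.0880 by edgeR), and that of Foxo3 without DI replicate 1 (0.107), DMSO replicate 1 (0.128) or DMSO replicate 2 (0.0511). Foxo3 also lost its call when scaled by library size only, at 0.20, and with limma on log2(FPKM + 1), at 0.18. With the replicate number as a block neither passed (adjusted p = 0.0572 for Klf2 and 0.0758 for Foxo3 by edgeR), and Klf2 did not pass by DESeq2 either (adjusted p = 0.0597).

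Among the genes listed as repressors of the brakes, 2 fell with DI, and whether they silence the brakes in these cells was not tested. Prdm1, which encodes Blimp1, stood at 24.9 and 20.4 CPM with DI and at 35.8 and 34.1 CPM with DMSO, with no overlap. This is a log2 fold change of -0.62 ± 0.11 (SE, adjusted p = 0.0162 by edgeR). Ezh2, the methyltransferase of the Polycomb complex, also fell, from 43.3 and 40.2 CPM to 26.0 and 26.1 CPM, a log2 fold change of -0.68 ± 0.07 (SE, adjusted p = 0.00322 by edgeR). The other 3 of the 5 listed repressors of the brakes, Eed, Suz12 and Dnmt3a, did not pass, and the median of the 5 was -0.06. Without DMSO replicate 1 the log2 fold change of Prdm1 was -0.59 and no longer passed (adjusted p = 0.0668 by edgeR).

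The listed osteoclast drivers either fell or did not pass, and whether the brakes restrain them in these cells was not tested. Of 12 osteoclast drivers, 6 fell and 0 rose, with a median log2 fold change of -0.29. Nfatc1, the factor that IRF8 restrains, stood at 80.5 and 77.5 CPM with DI and at 108 and 105 CPM with DMSO, a log2 fold change of -0.43 ± 0.05 (SE, adjusted p = 0.00504 by edgeR). Fos fell from 210 and 204 CPM to 135 and 139 CPM, a log2 fold change of -0.60 (adjusted p = 0.00115 by edgeR). Jdp2, an AP-1 partner, fell furthest, from 113 and 100 CPM to 25.4 and 27.9 CPM (log2 fold change -2.0 by edgeR). Myc, at -0.87, and Fosl2, at -0.57, also passed. Nfkb2, the precursor of p52, had a log2 fold change of -0.26 and lost its call without DMSO replicate 1 (adjusted p = 0.0516 by edgeR). Spi1, which encodes PU.1, a partner of IRF8, had a log2 fold change of -0.04 ± 0.04 (SE) and did not pass. Genes of the opposite strand cover 7.68% of the exons of Jdp2 and 11.6% and 6.52% of those of Nfkb2, the latter by Psd with a mean of 118 counts, and since the strand setting of the counting is not known, both counts are uncertain.

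**Figure D4:**
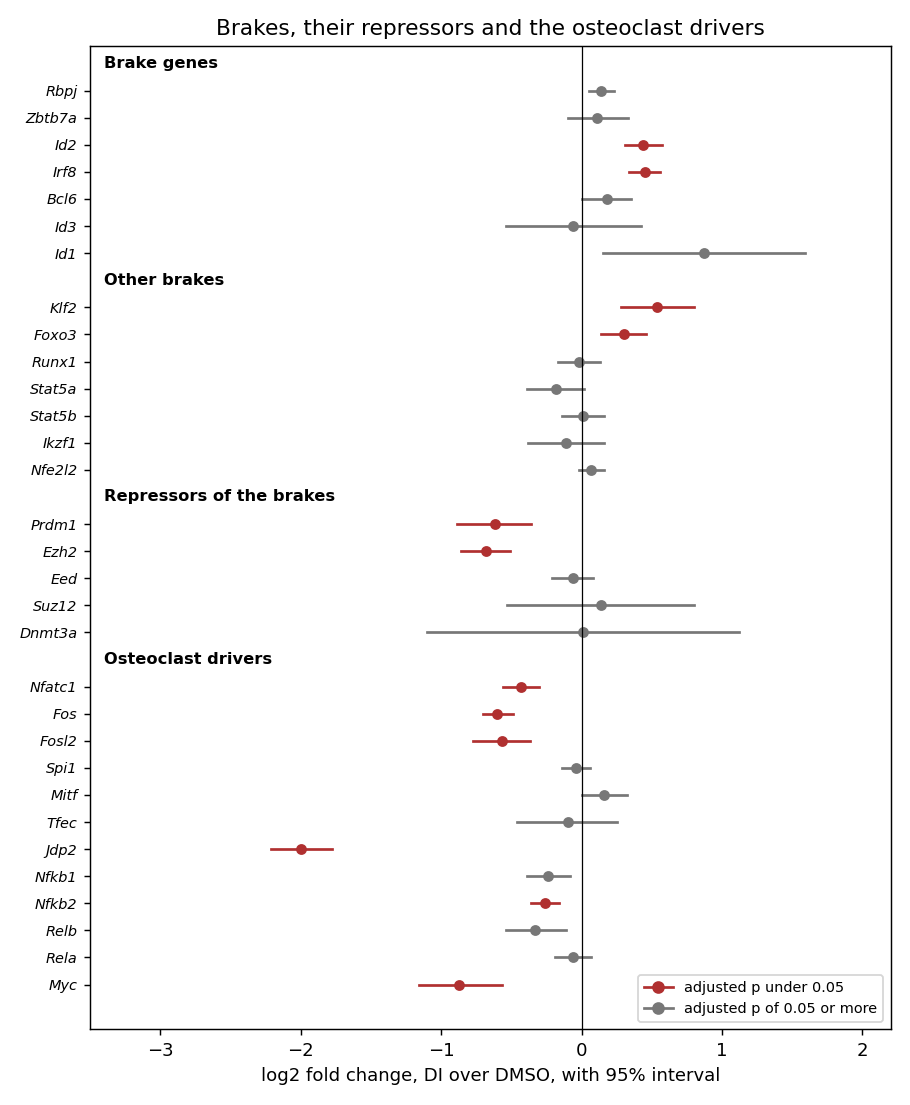
Log2 fold change (DI over DMSO, point) with its 95% interval (line) for the brake genes, the other brakes, the repressors of the brakes and the osteoclast drivers, red at an adjusted p under 0.05. Red points of the brakes lie to the right of 0, and all red points of the repressors and drivers lie to the left.

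Among 9 osteoclast genes listed as under the brakes, 7 were tested, 4 fell and 2 rose. Whether the brakes act on them in these cells was not tested. Ocstamp, a fusion gene, fell by 2.52 on the log2 scale, Mmp9, a matrix protease, by 1.64, Acp5, which encodes TRAP, by 0.95, and Ctsk, which encodes cathepsin K, by 0.58. Itgb3, the beta chain of the vitronectin receptor, rose by 0.56, and Atp6v0d2, a subunit of the proton pump, by 0.27. Dcstamp, at -0.19, did not pass, and Calcr had 0 counts in every library. The list therefore moved in both directions, with a median log2 fold change of -0.58.

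Genes linked to IRF8 as partners or targets showed no common direction. Of 11 genes, 9 were tested, 1 rose, 1 fell and 7 did not pass, with a median of -0.24. Cybb, a subunit of the phagocyte NADPH oxidase, had a log2 fold change of 0.18 (adjusted p = 0.0192 by edgeR). It was 0.07 and no longer passed when scaled by library size only, and likewise with limma on log2(FPKM + 1). Klf4, a factor of monocyte differentiation, had a log2 fold change of -0.30 (adjusted p = 0.0360 by edgeR). Ciita, the master regulator of MHC class II genes, had low levels, at 0.816 and 0.373 CPM against 1.88 and 1.62 CPM, and did not pass (log2 fold change -1.57, adjusted p = 0.0580 by edgeR). It did pass without DI replicate 1 (-2.21, adjusted p = 0.0499 by edgeR), without the filter, when scaled by library size only and with limma on log2(FPKM + 1). The call of Klf4 was lost with any library left out (adjusted p from 0.100 to 0.143 by edgeR), with the replicate number as a block (0.0631) and by DESeq2 (0.124), and that of Cybb without DI replicate 1 (0.0683), DI replicate 2 (0.0664) or DMSO replicate 1 (0.0598).

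The corepressors through which BCL6 acts included 1 gene that passed. Of 8 tested, Hdac3 fell, from 50.4 and 55.7 CPM with DMSO to 37.5 and 35.7 CPM with DI, a log2 fold change of -0.53 ± 0.08 (SE, adjusted p = 0.00892 by edgeR). The other 7 did not pass, and the median was 0.07. Of 7 relatives of Zbtb7a and Bcl6 in the ZBTB family, 4 were tested and none passed, with a median of 0.14.

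The E proteins that ID proteins bind did not pass the test either. Tcf3 had a log2 fold change of -0.25 ± 0.10 (SE), Tcf4 of 0.03 ± 0.11 (SE) and Tcf12 of -0.05 ± 0.12 (SE), and the values of Tcf4 and Tcf12 changed sign under other settings. BMP and TGF-beta ligands, their receptors and SMAD proteins take part in the control of Id genes, the inhibitors Smad6 and Smad7 among them. Of 16 such genes, 13 were tested, 2 rose and 0 fell, with a median of 0.10. Acvrl1, which encodes the type I receptor ALK1, rose from 22.4 and 20.4 CPM to 39.2 and 36.2 CPM, a log2 fold change of 0.81 ± 0.09 (SE, adjusted p = 0.00331 by edgeR). Tgfb1 rose by 0.22 (adjusted p = 0.0149 by edgeR), a call lost when scaled by library size only, where it stood at 0.12, and without DI replicate 2 (0.05 after rounding, not under it) or DMSO replicate 2 (0.0607). Tgfb1 also lost its call with limma on log2(FPKM + 1), at 0.11. The feedback inhibitors Smad6 and Smad7, which BMP signals induce, did not pass, with log2 fold changes of -0.18 ± 0.34 (SE) and 0.26 ± 0.19 (SE). Bmp4 and Bmp6 had 0 counts in every library.

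In the Notch pathway, whose DNA-binding protein is RBP-J, 17 of 26 genes were tested, 3 rose, 1 fell and 13 did not pass, with a median of 0.03. Jag1, a Notch ligand, rose from 46.6 and 44.7 CPM to 71.1 and 69.8 CPM, a log2 fold change of 0.63 ± 0.06 (SE, adjusted p = 0.00282 by edgeR). Notch1, a receptor, rose from 61.6 and 65.3 CPM to 85.9 and 81.1 CPM, a log2 fold change of 0.40 ± 0.06 (SE, adjusted p = 0.0125 by edgeR), while the more abundant receptor gene Notch2 had a log2 fold change of -0.01. The difference between both receptors was not tested. Psen2, a subunit of gamma-secretase, had a log2 fold change of 0.36 (adjusted p = 0.0327 by edgeR), and Dtx4, a ubiquitin ligase of the pathway, fell by 0.32. With limma on log2(FPKM + 1), Notch1 (0.24) and Psen2 (0.23) lost their calls. The target gene Hes1 had only 9 and 4 counts in the DI libraries and 2 in each DMSO library, too few to be tested, and Hey1, Hey2, Heyl, Nrarp and Dtx1 were not tested for the same reason. Notch1 lost its call without DMSO replicate 1 (adjusted p = 0.0503 by edgeR). Psen2 lost it without DI replicate 2 (0.111), DMSO replicate 1 (0.119) or DMSO replicate 2 (0.0632), and when scaled by library size only, at 0.26. The same uncertainty holds for Notch1 (7.5% and 2.91% of its exons covered by opposite-strand genes), Acp5 (6.75%), Ciita (3.45%), Acvrl1 (2.98%), Ezh2 (2.61%) and Bcl6 (0.313%), and for Notch2, which shares 5.02% with a gene of the same strand.

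**Figure D5:**
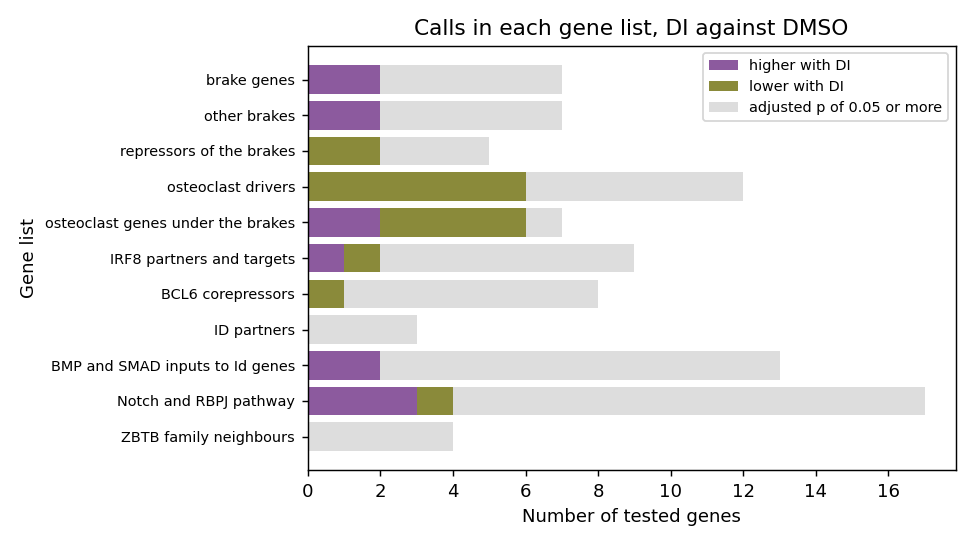
Number of tested genes in each gene list that were higher with DI, lower with DI or not past an adjusted p of 0.05, as stacked bars. The osteoclast drivers hold 6 lower and 0 higher genes of 12, and the brake genes 2 higher and 0 lower of 7.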

How the data were processed

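RNA was measured by paired-end sequencing of messenger RNA libraries from BMMs, 2 with RANKL+DI and 2 with RANKL+DMSO, grouped by their titles. The table deposited by the authors holds unnormalized read counts for each gene, and beside them FPKM values, which are relative to gene length and library total. The submitters' processing notes name GRCm38 (mm10). The aligner, counting program, strand setting and annotation release are not given in the sources used here. A second table with GO and KEGG terms was not used.

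Genes left by filterByExpr were scaled by TMM and compared between conditions, with no covariate, by the two-sided quasi-likelihood test of edgeR 4.0.16 in R 4.3.3. P-values were adjusted after Benjamini and Hochberg over 12590 genes and called under 0.05. Each standard error is the size of the log2 fold change divided by the root of F. The 95% intervals are for single genes and are not adjusted for the number of genes. No set test was run. Depth was 16085692 to 19403480 counts per library. Libraries of a group differed by more than sampling noise (chi-square per degree of freedom 7.57 and 7.74). Alternatives used DESeq2 1.42.0, limma 3.58.1, other scalings and filters, log2(FPKM + 1), a replicate block and each library left out. Gene positions and overlaps were taken from GENCODE M21 (GRCm38), on which 80.8% of shared identifiers had the same start and end, and copies from BLAST+ 2.17.0 (identity of 95% or more across 20% or more of the transcript).

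The members and lists were chosen with earlier results of these data known. All members are named. From each other list except the cell type markers, of which a few are named, the genes at an adjusted p under 0.05 are named, or the 6 with the largest change where more passed, plus 12 genes named whatever their values. Some listed genes are not reported here and were left out of the lists. The fit was tested on simulated data.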

Additional observations from a re-analysis of the deposited data

How the results depend on the processing

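The count of changed brake genes was 2 in the reported fit and under 12 of the 13 alternatives, and 3 without the filter on low counts, where Id1 joined. The number of changed genes overall was 1868, and with each library left out it lay between 1087 and 1394, lowest without DMSO replicate 2 (1087) and DMSO replicate 1 (1120). The other settings gave 1389 to 2480 genes. The split of higher and lower genes moved with the scaling, to 548 and 1932 with library size only and to 536 and 1674 with limma on log2(FPKM + 1). With a library left out, some values changed sign. Id3 ran from -0.20 (without DMSO replicate 1) over 0.03 (without DI replicate 2) to 0.08 (without DMSO replicate 2), Tcf4 from -0.12 to 0.20, Tcf12 from -0.25 to 0.14, Notch2 from -0.05 to 0.03 and Smad6 from -0.55 to 0.34. Tcf4 was also negative with library size only (-0.07) and limma on log2(FPKM + 1) (-0.03). None of these passed the test in the reported fit, and the cause was not tested. Of the 25 other named genes that passed, 16 did so under every setting and 9 lost the call under at least 1, without a change of sign. The alternatives for these genes were chosen after the data were seen.

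The labels number the libraries of both groups, but same-numbered libraries did not deviate together (Pearson's r = -0.0302 across 12590 genes, which are not independent replicates). With the replicate number as a replicate block, 1389 genes passed, Irf8 and Id2 kept their calls (adjusted p = 0.0130 and 0.0185, edgeR), and 3 other named genes, Klf2, Foxo3 and Klf4, lost theirs (adjusted p = 0.0572, 0.0758 and 0.0631, edgeR). With 2 libraries a group, low genes such as Id1 and Id3 are limited by depth.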

Other observations

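Dnmt3a, the DNA methyltransferase known to silence Irf8 in osteoclast precursors, had an average that did not differ between the groups but libraries that did. It stood at 196 and 85.7 CPM with DI and at 91.7 and 188 CPM with DMSO, so that DI replicate 1 and DMSO replicate 2 were high and the other two low. Its log2 fold change of 0.01 had a standard error of 0.45, where that of Irf8 was 0.05. Of the 8821 genes over 10 CPM, 19 differed by more than 1 on the log2 scale between the libraries of both groups, 12 of them in opposite order as Dnmt3a did and 7 in the same order. Tbl1xr1, a subunit of the corepressor complex that BCL6 recruits, showed the same order less steeply, at 106 and 57.4 CPM with DI and 62.5 and 98.9 CPM with DMSO. Suz12, a partner of EZH2, was low in DMSO replicate 2 alone, at 55.8 CPM against 88.9 to 107 CPM in the other libraries. For Dnmt3a, Tbl1xr1 and Suz12 no effect of DI could be read at this spread, and its cause was not tested. These genes were singled out after their values had been seen.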
